A study of Mus musculus with 9 samples.

Results

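Trav genes, the V segments that encode the variable part of the alpha chain of the T cell receptor, were followed in 9 bulk RNA libraries of aged C57BL/6 mice. Every row of the deposited expression table whose symbol begins with Trav and a digit was taken, which gave 129 of 46517 rows. GENCODE M21, the mouse annotation on GRCm38 (mm10), lists 109 of them as functional V genes and 20 as V pseudogenes. They fall into 23 numbered subgroups and span 1550 kb of chromosome 14 (chr14:52427928-53977678), upstream of the constant gene Trac. As a check of the family against the constant gene, in every library the summed Trav level lay close to the Trac level (given below).

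The alpha chain of the receptor of most T cells is put together in the thymus. One Trav gene is cut and joined to one J segment (Traj), the DNA between them is lost, and the joined exon is spliced to Trac. A mature alpha-beta T cell therefore transcribes Trac together with the Trav gene it has joined, and at times with a second one from its other chromosome. The mouse locus holds a block of V genes that has been copied, and the names of many copies carry a d or an n before the member number. There were 39 d copies, 35 n copies and 55 genes with neither letter. Genes with the same subgroup and member number are called a set here, and the 129 genes form 57 sets. The 10 genes whose names also carry dv can join to the delta chain as well.

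All mice were older than 18 months. Group 1 held 3 spleens of wild-type mice (1, 4 and 5). Group 2 held 4 spleens of plckGAPDH mice, which carry a Gapdh transgene driven by the Lck promoter, active in the T cell lineage, and which the labels describe as developing tumours. Animals 343, 508 and 547 gave a named column, and the fourth column names no animal and is called the unnumbered spleen. Group 3 held lymph nodes of plckGAPDH animals 455 and 508, so animal 508 is in both groups. The samples hold no wild-type lymph node. Where a node is set beside wild-type spleens, genotype and tissue therefore cannot be told apart. A spleen titled 331 could be matched to no column by name, and it is not settled that the 4 plckGAPDH columns stand for 4 different animals. Per the labels' protocol, total RNA was taken from splenocytes. The labels name no separate cultures or litters, so each p-value reflects only how these samples vary, which may be technical.

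Values are FPKM, a fragment count per gene that is scaled to the length of the gene and the size of the library. The steps between low FPKM values, each worth 1 fragment, gave estimated depths of 23800000 to 34600000 fragments per library and 186 to 2396 fragments on the Trav family. The libraries differed in the cells they held. The summed neutrophil markers (4 genes) were at 2.89 FPKM in wild-type spleen 4 and at 459 to 2829 in the other 6 spleens, and the summed erythroid markers (4 genes) were at 45268 FPKM in wild-type spleen 5 and at 1.57 in wild-type spleen 4. Xist was at 0.09 FPKM in wild-type spleen 5 and at 31.2 to 59.7 in the other libraries. The 3 stroma markers summed to at most 1.21 FPKM in any library. In bulk samples, fewer cells of a type and less RNA per cell cannot be told apart.

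The V exons below come from sets that were among the largest in a plckGAPDH library, with Trav10 shown for comparison with its copies and Trav20 as the neighbour of Trav21-dv12. They are shown because copies of a set differ at few bases, which limits how well reads can be given to a copy. All lie on the plus strand of chromosome 14 in GRCm38 (mm10) and come from the GENCODE M21 transcripts. The first 3 are the V exons of the Trav10 set, Trav10n (chr14:53122320-53122610), Trav10d (chr14:52811206-52811496) and Trav10 (chr14:53505996-53506286), each 291 bases long. Capitals mark the 5 positions at which they are not all alike.
Trav10n: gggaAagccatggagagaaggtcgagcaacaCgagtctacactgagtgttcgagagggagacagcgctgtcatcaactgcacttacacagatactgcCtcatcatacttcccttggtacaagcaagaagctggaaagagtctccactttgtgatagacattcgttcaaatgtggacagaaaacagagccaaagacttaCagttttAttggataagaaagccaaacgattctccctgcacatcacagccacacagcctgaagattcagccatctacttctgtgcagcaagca
Trav10d: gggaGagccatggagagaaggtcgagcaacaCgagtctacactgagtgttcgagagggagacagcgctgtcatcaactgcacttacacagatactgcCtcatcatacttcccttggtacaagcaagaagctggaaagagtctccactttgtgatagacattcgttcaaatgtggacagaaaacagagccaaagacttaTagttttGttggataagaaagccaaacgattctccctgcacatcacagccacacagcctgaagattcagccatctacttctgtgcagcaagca
Trav10: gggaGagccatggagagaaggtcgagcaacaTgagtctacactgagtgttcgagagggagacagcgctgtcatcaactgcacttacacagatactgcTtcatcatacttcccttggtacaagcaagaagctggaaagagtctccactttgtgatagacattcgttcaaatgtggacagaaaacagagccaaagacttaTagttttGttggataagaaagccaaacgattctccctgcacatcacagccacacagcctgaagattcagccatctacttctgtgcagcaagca
Trav10n and Trav10d differed at 3 of 291 bases, Trav10d and Trav10 at 2, and Trav10n and Trav10 at 5.

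The next pair belongs to the Trav6-6 set. Trav6-6 (chr14:53517069-53517366) and Trav6d-6 have the same V exon, and Trav6n-6 (chr14:53132840-53133137) differs from them at 8 of 298 bases, in capitals.
Trav6-6: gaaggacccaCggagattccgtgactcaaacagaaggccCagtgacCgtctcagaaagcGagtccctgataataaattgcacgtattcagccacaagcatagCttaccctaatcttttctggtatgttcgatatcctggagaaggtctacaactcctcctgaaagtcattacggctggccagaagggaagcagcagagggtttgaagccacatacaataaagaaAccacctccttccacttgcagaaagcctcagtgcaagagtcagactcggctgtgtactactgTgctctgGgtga
Trav6n-6: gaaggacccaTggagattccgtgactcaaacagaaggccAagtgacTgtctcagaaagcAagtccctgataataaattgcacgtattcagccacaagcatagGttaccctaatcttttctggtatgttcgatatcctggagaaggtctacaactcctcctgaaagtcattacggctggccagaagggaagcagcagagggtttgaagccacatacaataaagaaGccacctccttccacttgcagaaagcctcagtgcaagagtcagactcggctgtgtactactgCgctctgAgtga
The last 4 are of different subgroups. Capitals mark the codon of the conserved cysteine at which the third loop of the chain, CDR3, begins. They are Trav21-dv12 (chr14:53876465-53876752), its upstream neighbour Trav20, annotated as a pseudogene (chr14:53863367-53863661), Trav12n-3 (chr14:53240945-53241244) and Trav16 (chr14:53743406-53743705). Of the 301 bases of the exon, 300 are shown for each of Trav12n-3 and Trav16.
Trav21-dv12: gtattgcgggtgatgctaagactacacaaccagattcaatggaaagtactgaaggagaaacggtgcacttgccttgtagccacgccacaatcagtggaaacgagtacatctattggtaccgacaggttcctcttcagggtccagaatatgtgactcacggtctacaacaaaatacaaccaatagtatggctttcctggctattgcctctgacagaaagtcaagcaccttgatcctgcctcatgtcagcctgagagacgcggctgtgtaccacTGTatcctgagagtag
Trav20: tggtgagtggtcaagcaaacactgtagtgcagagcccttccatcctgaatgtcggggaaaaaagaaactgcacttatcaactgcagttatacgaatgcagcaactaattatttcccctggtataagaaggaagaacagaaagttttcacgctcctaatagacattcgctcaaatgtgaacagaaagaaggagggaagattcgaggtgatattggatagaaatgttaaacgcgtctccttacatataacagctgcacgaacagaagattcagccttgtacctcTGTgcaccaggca
Trav12n-3: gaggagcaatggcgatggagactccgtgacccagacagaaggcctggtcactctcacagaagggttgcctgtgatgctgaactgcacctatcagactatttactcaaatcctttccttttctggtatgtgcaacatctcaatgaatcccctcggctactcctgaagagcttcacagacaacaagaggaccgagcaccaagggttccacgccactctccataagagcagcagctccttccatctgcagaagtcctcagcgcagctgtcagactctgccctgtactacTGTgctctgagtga
Trav16: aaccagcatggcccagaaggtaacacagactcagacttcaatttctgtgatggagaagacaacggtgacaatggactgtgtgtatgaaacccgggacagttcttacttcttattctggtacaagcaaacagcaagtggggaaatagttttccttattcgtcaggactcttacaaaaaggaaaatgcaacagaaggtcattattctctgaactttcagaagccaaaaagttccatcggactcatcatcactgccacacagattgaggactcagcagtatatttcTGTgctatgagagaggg
The V exon of Trav12d-3 is the same as that of Trav12n-3, so these 2 can be told apart only by their leader exons.

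The Trav level followed the Trac level, and the genotypes overlapped. The summed Trav FPKM was 97.3, 143 and 150.02 in wild-type spleens 1, 4 and 5. It was 86.8 in plckGAPDH spleen 343, 46.0 in 508, 32.5 in 547 and 499 in the unnumbered spleen. Lymph nodes 455 and 508 held 57.2 and 29.7. Thus 3 plckGAPDH spleens lay below every wild-type spleen and 1 lay above them all. Trac, the constant part of every alpha chain, was at 71.7, 127 and 133 FPKM in the wild-type spleens, at 70.3, 31.6, 28.5 and 403 in plckGAPDH spleens 343, 508, 547 and unnumbered, and at 56.6 and 23.5 in the lymph nodes. The ratio of the Trav sum to Trac stayed between 1.01 and 1.45 over all 9 libraries. It was 1.20 ± 0.133 (SD, n = 3) in wild-type and 1.27 ± 0.132 (SD, n = 4) in plckGAPDH spleens.

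Neither quantity passed the test between the spleens. On the log2 scale the family sum was 6.997 ± 0.34 (SD, n = 3) in wild-type and 6.49 ± 1.75 (SD, n = 4) in plckGAPDH spleens, a difference of -0.51 (exact two-sided permutation test over 35 splits, p = 0.686, adjusted p = 0.771 over the 9 family measures). The log2 ratio to Trac differed by 0.07 (exact permutation p = 0.457, adjusted p = 0.771). The smallest p this design allows is 0.0286. A single measure at that p would still not pass once adjusted over the 9 measures. Not passing therefore says little of whether the groups differ, here and for the measures below. Without the unnumbered spleen the difference of the family sum was -1.33, and without spleen 547 it was -0.02.

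In the wild-type spleens many Trav genes shared the family sum about evenly, and no gene held more than 6.79% of it. In plckGAPDH spleens 508 and unnumbered and in both lymph nodes a few genes held most of it, spleen 343 lay between, and spleen 547 resembled the wild-type spleens. The effective number of genes, the number of equally used genes that would give the same Shannon entropy, was 72.3, 63.8 and 77.6 in wild-type spleens 1, 4 and 5. It was 31.1 in plckGAPDH spleen 343, 4.71 in 508, 63.3 in 547 and 7.27 in the unnumbered spleen, and 14.9 and 8.96 in lymph nodes 455 and 508. By this count, in which copies with the same sequence are separate genes, all 4 plckGAPDH spleens lay below the lowest wild-type spleen, spleen 547 by a narrow margin. With the copies of each set summed, the effective number of sets was 28.9 in spleen 547, between wild-type spleens 4 (27.6) and 1 (33.3). It was 14.5, 4.42 and 3.75 in plckGAPDH spleens 343, 508 and unnumbered, below every wild-type spleen.

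The effective number of genes averaged 71.2 ± 6.98 (SD, n = 3) in wild-type and 26.6 ± 27.2 (SD, n = 4) in plckGAPDH spleens, and the difference did not pass the test (-44.6, exact permutation p = 0.0571, adjusted p = 0.386). The effective number of subgroups was 12.5 ± 0.820 (SD, n = 3) in wild-type and 6.72 ± 3.86 (SD, n = 4) in plckGAPDH spleens, with 3 of 4 below every wild-type spleen (difference -5.79, exact permutation p = 0.0857, adjusted p = 0.386). The most abundant gene held 4.63 ± 1.87% (SD, n = 3) of the family in wild-type and 30.8 ± 26.3% (SD, n = 4) in plckGAPDH spleens, again with 3 of 4 outside the wild-type range (difference 26.1 percentage points, exact permutation p = 0.2, adjusted p = 0.600; 16.3 without spleen 508). Copies with the same sequence count as separate genes in this measure. The top of spleen 343 was the equal pair Trav6-6 and Trav6d-6, at 13.0% each. That of wild-type spleen 5 was the equal pair Trav14d-1 and Trav14n-1, at 3.45% each.

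Depth on the family differed between libraries, so the number of sets expected among 180 fragments was computed for each. It was 40.1, 34.1 and 40.3 in the wild-type spleens, and 30.9, 16.8, 36.7 and 15.6 in plckGAPDH spleens 343, 508, 547 and unnumbered. The lymph nodes gave 25.6 and 23.8. At equal depth spleen 547 fell inside the wild-type range and the other 3 plckGAPDH spleens fell below it. The unnumbered spleen had the most Trav fragments of all and the fewest expected sets.

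**Figure D1:**
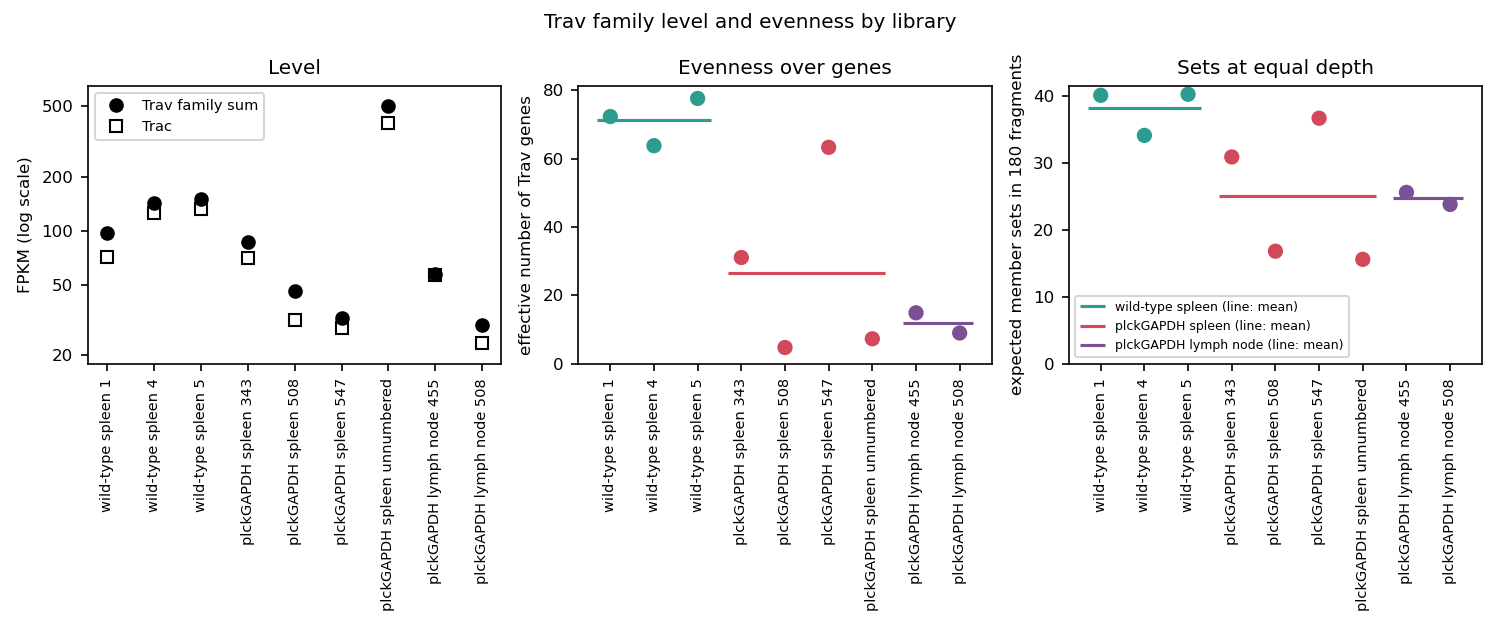
Level and evenness of the Trav family in the 9 libraries. Left, summed Trav FPKM (filled circles) and Trac FPKM (open squares) on a log axis; centre, effective number of Trav genes; right, member sets expected among 180 Trav fragments, with colours for the 3 groups and lines at group means. The circles and squares move together, while the effective number runs from 63.8 to 77.6 in wild-type spleens and from 4.71 to 63.3 in plckGAPDH spleens.

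The leading genes were not the same ones from animal to animal. In the unnumbered plckGAPDH spleen, Trav10n was at 225 FPKM and Trav10d at 82.9, whereas the undoubled Trav10 was at 0.480. Elsewhere Trav10n was at 1.71, 2.39 and 2.77 in the wild-type spleens, at 0.860 in spleen 547, at 0.190 in lymph node 508 and at 0 in spleens 343 and 508 and lymph node 455. The Trav10 set as a whole was at 308 FPKM in the unnumbered spleen, which is 61.8% of its Trav sum. By estimated fragments it held 1464 of 2396, or 61.1% (exact Clopper-Pearson 95% interval 59.1 to 63.1%). In the wild-type spleens the same set held 4.57 to 5.67%. These intervals cover counting error only, because fragments copied by PCR are not independent molecules.

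The Trav9-1 set was the second largest in that spleen. Trav9d-1 was at 71.5 FPKM and Trav9-1 at 39.4, and the pseudogene copy Trav9n-1 was at 5.89. The set summed to 117 FPKM, or 23.4% of the family, against 0.347 to 0.939% in the wild-type spleens. Trav9d-1 and Trav9-1 differ at 2 of 291 V exon bases, so the split between them carries that uncertainty. The Trav10 and Trav9-1 sets together held 85.2% of the Trav sum of the unnumbered spleen. The Trav6-6 set came next there, with 3.52%.

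In animal 508 the leading gene was Trav21-dv12, the V gene that is also named as delta V 12. It was at 27.7 FPKM in the spleen and at 13.4 in the lymph node, and between 0.190 and 2.51 in the other 7 libraries. That was 131 of 229 estimated Trav fragments in the spleen, or 57.2% (exact 95% interval 50.5 to 63.7%), and 76 of 186 in the node, or 40.9% (33.7 to 48.3%). Next came Trav20, at 7.02 FPKM in the spleen and 2.26 in the node and at most 0.220 elsewhere, and Trav7-4, at 4.06 and 4.71 and at most 2.60 elsewhere. The same 3 genes were the top 3 in the spleen and in the lymph node of this animal. Trav20 is annotated as a pseudogene and starts 12.9 kb upstream of Trav21-dv12. Pseudogenes held 16.8% and 8.93% of the Trav FPKM in these libraries, against at most 2.17% in the other 7. Trav20 alone held 15.3% and 7.62% in them. Why Trav20 was high beside Trav21-dv12 was not tested.

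Both libraries of animal 508 were also low in the chains of CD8, the coreceptor of cytotoxic T cells. Cd8a was at 0.480 FPKM in the spleen and 0.430 in the node, and at 5.38 to 32.7 in the other 7 libraries. Cd4, the coreceptor of helper T cells, was at 12.7 and 9.04 FPKM, within the range of the others (4.32 to 82.9).

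In lymph node 455, Trav12n-3 was at 18.2 FPKM and Trav16 at 12.4. Trav12n-3 was at 0, 0.78 and 4.25 in the wild-type spleens and at 0 in the other 5 libraries, while Trav12d-3, with the same V exon, was at 3.64 in this node and at 0 to 2.11 elsewhere. The Trav12-3 set held 123 of 330 estimated Trav fragments, or 37.3% (exact 95% interval 32.0 to 42.7%), and the Trav16 set 86, or 26.1% (21.4 to 31.2%). In the wild-type spleens they held 1.48 to 3.74% and 4.32 to 9.60% of the Trav FPKM. Trav16 and Trav16d-dv11 differ at 5 of 301 V exon bases.

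In plckGAPDH spleen 343 the Trav6-6 set led. Trav6-6 and Trav6d-6 stood at 11.3 FPKM each, and Trav6n-6 at 8.70. The set took 141 of 459 estimated fragments, or 30.7% (exact 95% interval 26.5 to 35.2%), against 4.71 to 6.67% of FPKM in the wild-type spleens. Trav14-2 (6.22 FPKM) and Trav16 (5.06 FPKM) followed. Over the other plckGAPDH spleens the Trav6-6 set was at 0 in spleen 508, 1.45 FPKM in 547 and 17.6 in the unnumbered spleen.

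Spleen 547 had a low family sum with no dominant gene. Its top genes were Trav16d-dv11 at 1.54 FPKM, Trav12d-3 at 1.46 and Trav12-3 at 1.06. Trav16d-dv11 held 10 of 251 fragments, or 3.98% (exact 95% interval 1.93 to 7.20%). The top genes of the wild-type spleens held similar shares: Trav13d-1 was at 3.55 FPKM in spleen 1, Trav4-4-dv10 at 9.69 in spleen 4, and Trav14d-1 and Trav14n-1 at 5.18 each in spleen 5. Different genes led in each.

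**Figure D2:**
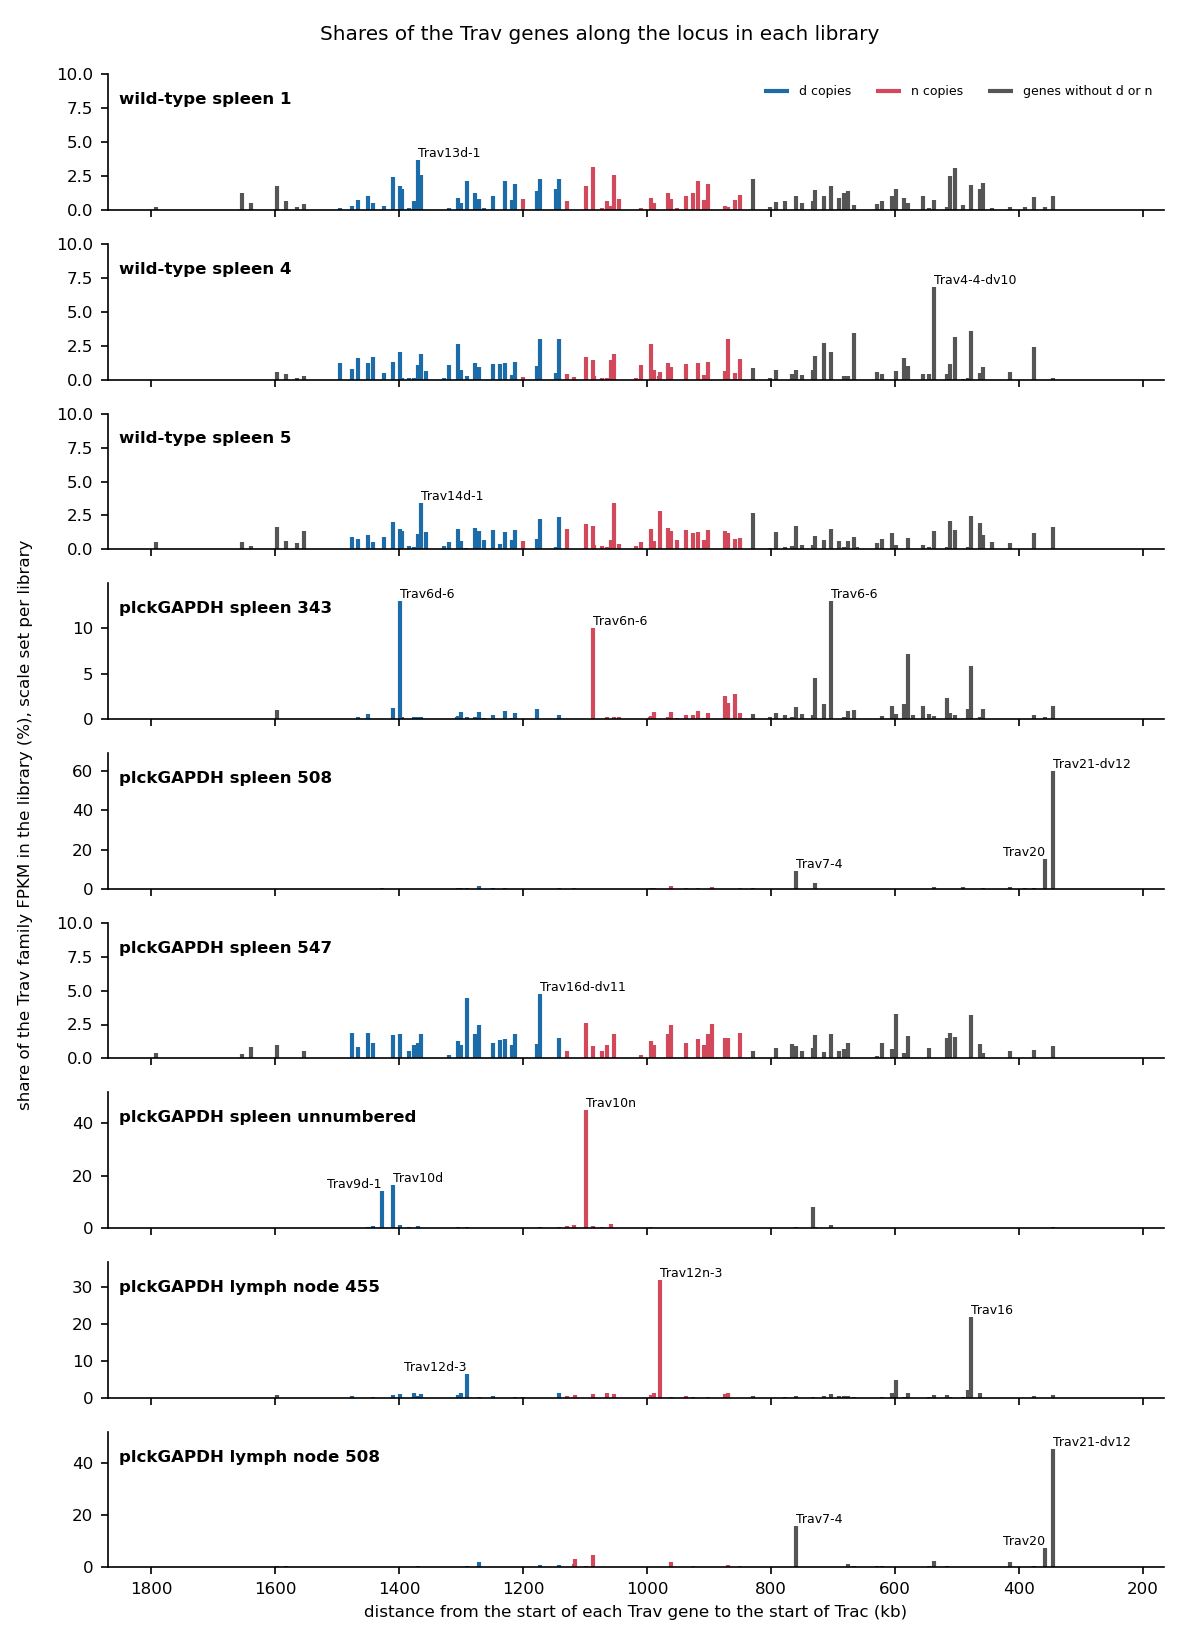
Share of the Trav FPKM of each library held by each Trav gene (vertical axis, percent, scaled per library), against its distance to Trac (horizontal axis, kb, distal at the left). Colours mark d copies, n copies and genes with neither letter. The wild-type spleens and spleen 547 show low bars along the whole locus, and single genes or copies of a set stand out in the other libraries, up to 60.3% for Trav21-dv12 in spleen 508.

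Libraries can be set side by side by the share of the family that a pair has in common, taken as the sum over sets of the smaller share. The wild-type spleens had 75.4 to 82.3% in common. Spleen 547 had 74.8 to 75.6% in common with each of them. The spleen and lymph node of animal 508 had 72.7% in common, whereas spleen 508 had 5.55 to 17.9% in common with every other library. The 2 lymph nodes had 17.8% in common, and the unnumbered spleen had at most 20.7% with any library. These are descriptions of pairs of libraries, with no test, and the libraries differ in Trav fragments as given above.

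**Figure D3:**
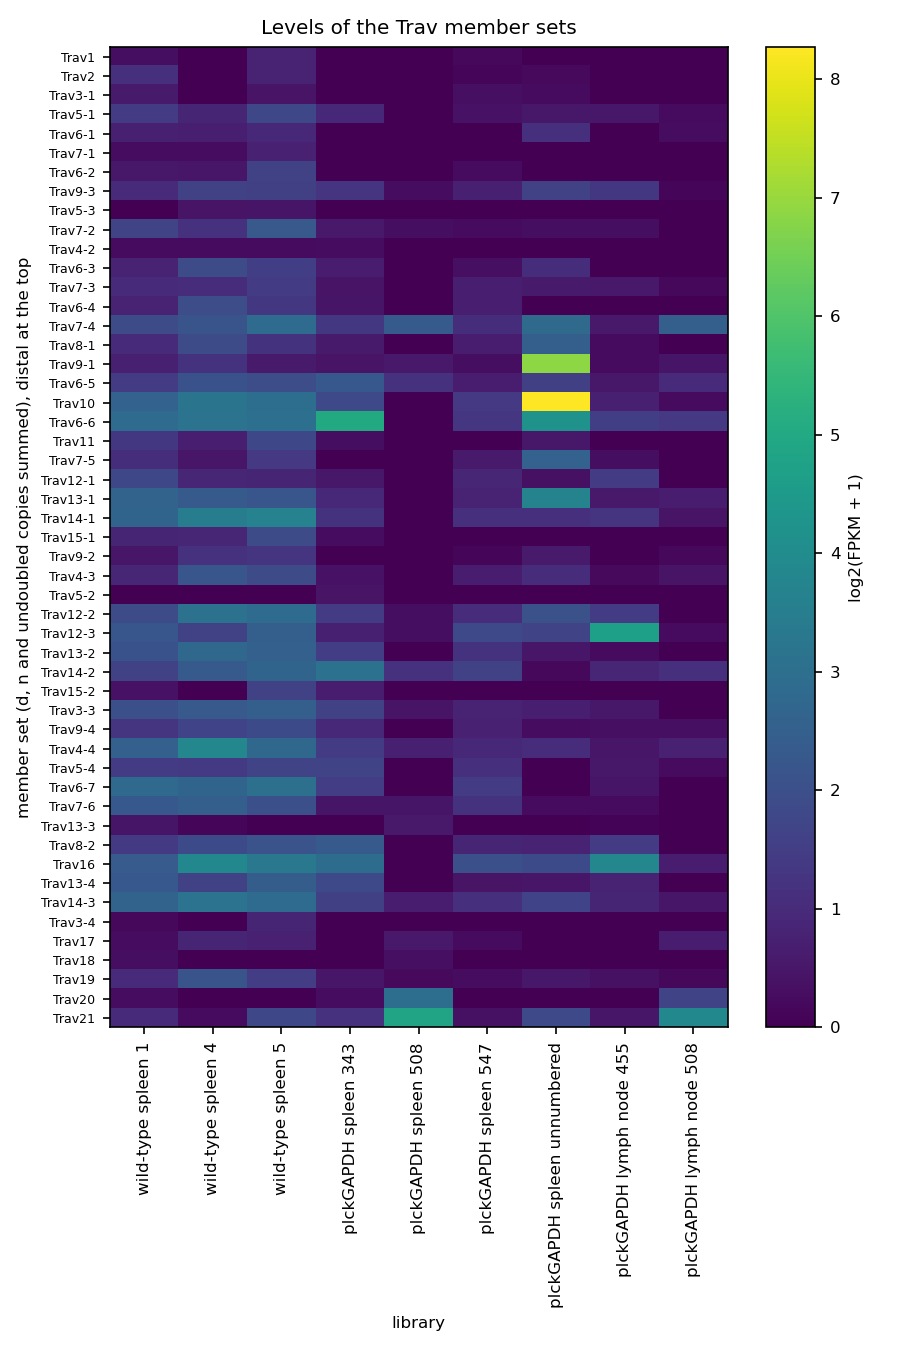
Level of each Trav set above 0 in any library, as log2(FPKM + 1) by colour, with sets in rows from distal to proximal and libraries in columns. The bright cells of the Trav10 and Trav9-1 sets lie in the unnumbered spleen, and the brightest Trav6-6 cell (31.2 FPKM) in spleen 343. Those of Trav21 lie in both libraries of animal 508. Trav20 was at 7.02 FPKM in the spleen of that animal and at 2.26 in its node, dimmer than some wild-type cells. The brightest Trav12-3 cell lies in lymph node 455. The Trav16 set is about as bright in wild-type spleen 4 (13.7 FPKM) as in that node (13.2 FPKM).

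Position along the locus varied with the gene that led. The 129 genes were split by start position into distal, middle and proximal groups of 43, from 1793 kb to 243 kb upstream of Trac. Distal genes held 33.5, 28.1 and 33.4% of the Trav FPKM in wild-type spleens 1, 4 and 5, and 21.7, 3.48, 34.97 and 36.8% in plckGAPDH spleens 343, 508, 547 and unnumbered. Proximal genes held 31.9, 37.7 and 26.9% in the wild-type spleens and 51.4, 91.4, 29.5 and 11.3% in the plckGAPDH spleens. In lymph nodes 455 and 508 they held 40.02 and 77.7%. The plckGAPDH spleens thus lay on both sides of the wild-type range.

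The distal share was 31.7 ± 3.07% (SD, n = 3) in wild-type and 24.3 ± 15.4% (SD, n = 4) in plckGAPDH spleens (difference -7.43 percentage points, exact permutation p = 0.543, adjusted p = 0.771; -0.51 without spleen 508). The proximal share was 32.2 ± 5.41% (SD, n = 3) and 45.9 ± 34.5% (SD, n = 4) (difference 13.7, exact permutation p = 0.657, adjusted p = 0.771). Without spleen 508 the proximal difference turned to -1.46. Neither share passed the test, and the spread among plckGAPDH spleens exceeded the difference.

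The d and n copies behaved likewise. The d copies held 35.1, 34.0 and 32.9% in the wild-type spleens and 22.2, 3.79, 39.2 and 37.3% in plckGAPDH spleens 343, 508, 547 and unnumbered (difference of means -8.39 percentage points, exact permutation p = 0.514, adjusted p = 0.771; -1.11 without spleen 508). The n copies held 24.1, 25.0 and 30.6% and then 23.5, 4.26, 26.9 and 50.7% (difference -0.24, exact permutation p = 0.943, adjusted p = 0.943). The sign of the n difference turned when wild-type spleen 5, spleen 343 or spleen 508 was left out (1.77, 0.72 and 7.12).

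Copies limit what a gene name can mean. Of the 129 genes, 18 pairs share a transcript sequence; 17 of these pairs were above 0, and 16 had equal FPKM in all 9 libraries, Trav14d-1 and Trav14n-1 among them. Such a pair holds 1 measurement, printed for both. No pair with other sequence had equal nonzero values in all libraries. There were 20 pairs with the same V exon, some of which differ in the leader. In all, 16 genes were at 0 in every library, 11 of them pseudogenes. At least 1 FPKM in any library was reached by 84 genes, and 10 FPKM by 9: Trav9d-1, Trav10d, Trav10n, Trav9-1, Trav6-6, Trav6d-6, Trav12n-3, Trav16 and Trav21-dv12. None of the 9 reached 10 FPKM in a wild-type spleen, and these 9 were singled out after their values were seen.

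Gene by gene, the spleens of the 2 genotypes were compared on log2(FPKM + 1) with limma, among genes at 1 FPKM in at least 3 spleens. Of the 129 Trav genes 38 passed this filter, 16 of them with no plckGAPDH spleen at 1 FPKM, so that those could only be lower. Genes with a false discovery rate (FDR, by Benjamini-Hochberg) below 0.05 were called. By that rule 3 of the 38 fell, beside 1.23% of all 12607 genes tested that fell. None rose, beside 0.206% of all genes. All 3 are among the 16 that could only be lower, so their count is not read against that share. Including the 3 called, 21 of the 38 had an unadjusted limma p under 0.05, beside 1116 of the 12607 genes tested. All 21 were lower, beside 589 of the 1116. As 16 of the 38 could only be lower, this count too is a description only. Pairs with equal FPKM, Trav14d-1 and Trav14n-1 among them, count as separate genes in the 38, the 21 and the 3. The median log2 difference of the 38 was -0.94, against 0.02 over all genes tested; since genes could pass the filter through the wild-type spleens alone, that median is a description only.

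The genes that fell were Trav7-6 and the identical pair Trav14d-1 and Trav14n-1. Trav7-6 was at 3.03, 4.48 and 2.09 FPKM in wild-type spleens 1, 4 and 5, and at 0.380, 0, 0.520 and 0 in plckGAPDH spleens 343, 508, 547 and unnumbered. Its log2 difference was -1.76 (SE 0.33, limma FDR 0.0153). Trav14d-1 and Trav14n-1 were at 2.54, 2.65 and 5.18 FPKM and then at 0.230, 0, 0.590 and 0.410, with a log2 difference of -1.74 (SE 0.33, limma FDR 0.0179). With no plckGAPDH spleen at 1 FPKM, these 3 genes could pass the filter only with every wild-type spleen at 1 FPKM or more. That the groups did not overlap in them therefore follows from the filter, and their FDRs are to be read with that limit. In both lymph nodes Trav7-6 was at 0, and the Trav14 pair was at 0.62 and 0.1.

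With any 1 of the 3 wild-type spleens left out, the filter removed all 3 called genes, and none of the 15 to 20 Trav genes then tested was called. With the minimum asked in 2 spleens, a setting chosen after seeing the data, 2, 0 and 1 Trav genes were called without wild-type spleens 1, 4 and 5. The log2 differences of the 3 genes then ran from -1.97 to -1.48. The Trav14 pair was called without spleen 1 (limma FDR 0.0453) and Trav7-6 without spleen 5 (limma FDR 0.0321). With the copies of each set summed before the fit, 5 of 27 sets tested fell, beside 1.26% of the 12596 features of that fit. Sets too could pass the filter through the wild-type spleens alone, so nothing is read from this count. The sets that fell were Trav14-1 (-2.41, SE 0.41, limma FDR 0.00826), Trav4-4 (-2.01), Trav6-7 (-2.11), Trav7-6 (-1.67) and Trav14-3 (-1.64, limma FDR 0.0479). The Trav14-1 set was at 5.41, 10.2 and 11.7 FPKM in the wild-type spleens and at 1.33, 0, 1.18 and 1.17 in the plckGAPDH spleens, without overlap.

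The leading genes of single plckGAPDH spleens that were tested did not pass. Trav10n had a log2 difference of 0.47 (SE 1.47, limma FDR 0.991), and Trav21-dv12 one of 1.04 (SE 0.83, limma FDR 0.880), and each was above the wild-type range in 1 plckGAPDH spleen or, for Trav21-dv12, in 2 (27.7 and 2.51 FPKM against at most 2.46). Trav6-6 had a log2 difference of 0.11 (SE 0.73, limma FDR 0.996) and was above the wild-type range in spleen 343 and in the unnumbered spleen (11.3 and 6.82 FPKM against at most 2.96). Trav9d-1, Trav9-1 and Trav20 did not pass the filter and were not tested.

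**Figure D4:**
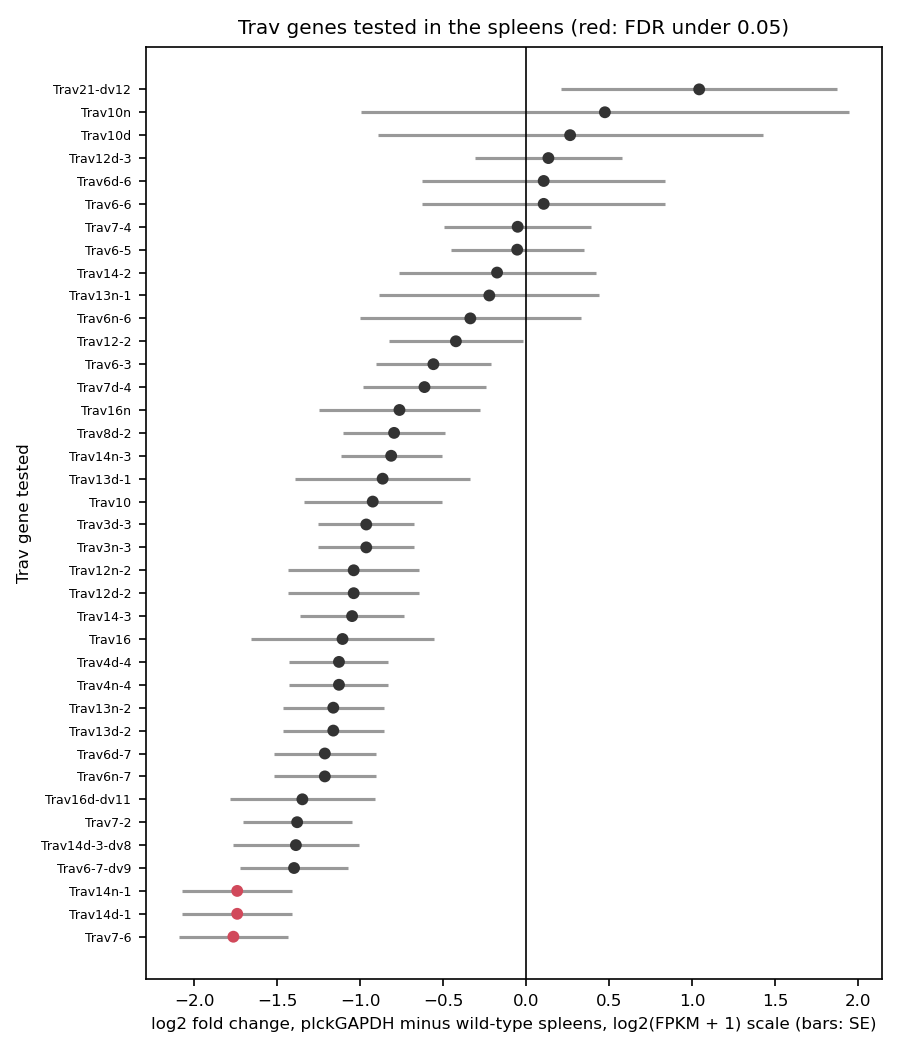
Log2 difference between plckGAPDH and wild-type spleens (horizontal axis, log2(FPKM + 1) scale) of the 38 Trav genes tested, with bars for the standard error and red for FDR under 0.05. The red points, Trav7-6 and the Trav14d-1 and Trav14n-1 pair, lie lowest, and the genes that led single animals (Trav10n, Trav10d) have the longest bars.

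Counted over every row with no filter, 28 of the 129 Trav genes (21.7%) lay lower in all 4 plckGAPDH spleens than in all 3 wild-type spleens, beside 2.41% of all 46517 rows. None lay higher in all, beside 1.28%. Rows at 0 in every spleen cannot be counted either way. Above 0 in a spleen were 31973 of all rows and 112 of the Trav genes, so such rows lower the shares of all rows more. The 28 genes hold 22 distinct sequences or pairs and come from 18 sets. They were thus lower also in the unnumbered spleen, where the family sum was highest. In the other 3 plckGAPDH spleens the family sum itself lay below every wild-type spleen, and FPKM are not set against that sum. Taken as shares of the Trav sum, 11 genes lay lower in all plckGAPDH spleens than in all wild-type spleens, and none lay higher. Such shares have no counterpart over all rows, so nothing is read from that count. With copies summed, 16 of 57 sets lay lower by FPKM and none higher, and by share of the Trav sum 11 lay lower and none higher. No share over all rows matches these counts of sets, so nothing is read from them. Some of the 28 genes lay near the floor. Trav7-1 was at 0.22, 0.21 and 0.7 FPKM in wild-type spleens 1, 4 and 5, about 1, 1 and 3 estimated fragments, and at 0 in the plckGAPDH spleens.

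Trav11 is the V gene of invariant natural killer T cells, which recognise lipids on CD1d, and Trav1 that of mucosal-associated invariant T cells. The gene Trav11 itself was at 0 in all 9 libraries. Its copy Trav11d was at 1.52, 0.210 and 2.03 FPKM in wild-type spleens 1, 4 and 5, at 0.230, 0, 0 and 0.460 in plckGAPDH spleens 343, 508, 547 and unnumbered, and at 0 in both nodes, so the groups overlapped. The pseudogene copy Trav11n was at 0, 0.410 and 0.450 in the wild-type spleens and at 0 elsewhere. Trav1, the most distal gene, was at 0.230, 0 and 0.78 FPKM in the wild-type spleens and at 0.140 in spleen 547, and at 0 in the other plckGAPDH libraries. All of these were too low for the filter of the spleen comparison and were not tested there. In the comparison of lymph nodes and plckGAPDH spleens given below, Trav11d passed the filter and was not called (log2 difference -0.21, limma FDR 0.686). The 3 genes listed for natural killer T cells, Zbtb16, Klrb1c and Cd1d1, summed to 27.0, 7.70 and 40.2 FPKM in the wild-type spleens. They summed to 1.96 to 10.4 in the plckGAPDH spleens and to 1.68 and 3.99 in the nodes. Most of the wild-type sums was Cd1d1 (18.8, 6.65 and 24.3), the gene of CD1d itself, and Klrb1c is also listed for natural killer cells. Zbtb16 was at 0.54, 0.34 and 0.6 in wild-type and at 0.12, 0.03, 0.05 and 0.91 in plckGAPDH spleens 343, 508, 547 and unnumbered. The part of such cells in the Trav11d values was not tested.

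The dv genes held 10.5, 15.2 and 13.8% of the Trav FPKM in the wild-type spleens and 3.73, 61.5, 10.1 and 1.44% in plckGAPDH spleens 343, 508, 547 and unnumbered. They held 4.48 and 49.2% in lymph nodes 455 and 508, where Trav21-dv12 alone held 45.1% in node 508. Trdc, the constant gene of the delta chain to which dv genes can also be joined, was at 0.0200 FPKM in spleen 508 and 0.0400 in node 508, against Trac at 31.6 and 23.5. Over the spleens Trdc was at 0.980, 0.400 and 2.70 in wild-type and at 0.02 to 0.05 in plckGAPDH mice. Of the 11 gamma-delta receptor genes looked for, 8 have a row and 1, Trgv2, was tested and did not pass (log2 difference -1.20, limma FDR 0.681).

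None of the other receptor genes was called. All 10 genes of the alpha-beta receptor and its coreceptors were tested in the spleens. Their log2 differences ran from -1.73 (Cd8b1) to -0.56 (Cd4), with a median of -0.81, and none was called by limma (smallest FDR 0.634) or had an unadjusted p under 0.05. Trbc2, a constant gene of the beta chain, was at 137, 268 and 407 FPKM in the wild-type spleens and at 145, 75.5, 77.8 and 357 in plckGAPDH spleens 343, 508, 547 and unnumbered. The signalling chain gene Cd3g was at 55.5, 113 and 118 and then at 50.3, 26.5, 43.3 and 218 FPKM. The unnumbered spleen lay above the wild-type range in Cd3g, as in Trac, and inside it in Trbc2. Of 10 rearrangement and thymic precursor genes 5 were tested and none was called (smallest limma FDR 0.318), while 1, Cd1d1, had an unadjusted p under 0.05. That FDR is also the one of Cd1d1, the gene of CD1d, which is listed for natural killer T cells above as well. Rag1 and Rag2, which cut the DNA at V and J segments, were at no more than 0.190 and 0.09 FPKM in any library, and Ptcra, the partner of the beta chain in thymic precursors, at no more than 0.210. All 60 Traj rows of the table were at 0 in all libraries, so the joined J segments cannot be read from it.

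Markers of other cells stood as follows beside these results in the spleens. Of the 4 markers of natural killer cells all 4 had negative differences, with a median of -1.82, and none was called (smallest limma FDR 0.0691), while 3 had an unadjusted p under 0.05. They summed to 29.1, 27.4 and 49.2 FPKM in wild-type and to 0.660 to 16.2 in plckGAPDH spleens. The 5 B cell markers summed to 1315, 315 and 1525 FPKM in wild-type and to 483 to 934 in plckGAPDH spleens, and none of them was called or had an unadjusted limma p under 0.05. The 10 T cell markers summed to 381, 566 and 672 FPKM in wild-type and to 133 to 886 in plckGAPDH spleens. The part of these cells in the Trav differences was not tested.

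The plckGAPDH lymph nodes were set against the plckGAPDH spleens in a limma fit of the 3 groups over all 9 libraries. Of 61 Trav genes tested, none was lower and none higher at an FDR under 0.05, beside 0.00731% of 13682 genes in each direction. At an unadjusted p under 0.05 there were 2, Trav6-5 (-1.41, limma FDR 0.359) and Trav12n-3 (2.13, limma FDR 0.359). Among all 13682 genes tested, 1546 had an unadjusted limma p under 0.05. The median log2 difference of the 61 was -0.27, against -0.59 over all genes tested. Median-of-ratios factors, which put the typical gene at the same level in each library, differed by -0.78 between the nodes and these spleens. Because animal 508 gave both a spleen and a node, the groups were not independent, and the only other node came from animal 455.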

How the data were processed

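The deposited table holds FPKM with 2 decimals for 9 libraries. The submitters' processing notes name the build mm10 and, in no stated order, Bowtie2 2.2.6, RSEM, STAR 2.4.0a, Subread 1.5.0-p3 and featureCounts. The tool that made the FPKM, the annotation and the handling of reads that fit several copies: not given in the sources used here. Per the labels' protocols, libraries came from 500 ng of total RNA with a stranded kit and were read as 2 x 75 bases; the design text names another sequencer and triplicates.

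No counts were used and no count model was fitted. For the spleens, limma 3.58.1 (R 4.3.3, intensity trend) was run on log2(FPKM + 1), with 1 FPKM in 3 of 7 spleens; nodes in a fit of 9 libraries with 1 FPKM in 2. Such fold changes understate low genes. For each family measure an exact permutation test, two-sided, was run, adjusted (Benjamini-Hochberg) over 9. Depth came from genes with 1 annotated transcript: 85.9 to 89.0% of their low values lay at whole fragments within 0.1 fragment plus rounding, against 36.1 to 39.9% by chance. Fragments per gene use GENCODE M21 lengths. Scripts were tested on simulated data. No 2 libraries shared over 0.257% identical values among genes at 1 FPKM in both.

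Genes were named by rule: the top 3 Trav genes of each library, up to 6 called genes per comparison, the copies of these, and Trav11, Trav11d and Trav1. Members, lists and tests were chosen with earlier results of these data known. The symbol Trav7n-6 stands on 2 rows, kept apart by gene ID (ENSMUSG00000105080 and ENSMUSG00000105721); both count as n copies, though the latter lies among the d copies.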

Additional observations from a re-analysis of the deposited data

Results flagged for a closer look

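In 42 checks of the 4 plckGAPDH spleens (the 9 family measures and the named genes above 0), 13 values stood apart from the other 3 by Dixon's test at the 95% level. Chance flags about 1 in 20 unselected groups, but the genes were named partly for being highest in these same libraries or as copies of such genes, so that rate does not apply to them. The unnumbered spleen had a Trav family sum of 498.9 FPKM. This sum was checked on the linear scale and not on the log2 scale of its permutation test. It also stood apart in Trav10n (224.8 FPKM), Trav10d (82.9), Trav9d-1 (71.5), Trav9-1 (39.4), Trav13n-1 (7.17), Trav9n-1 (5.89), Trav13d-1 (4.39), Trav7n-4 (3.12) and the Trav7n-6 row ENSMUSG00000105721 (0.190). Spleen 508 stood apart in Trav21-dv12 (27.7 FPKM) and Trav20 (7.02), and spleen 547 in Trav1 (0.140 FPKM, against 0 in the other 3, so that any value above 0 stands apart).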

How the results depend on the processing

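The 3 Trav genes called between the spleens became 0 with a pseudocount of 0.1, 0 with no filter on low values, 5 with a filter of 0.5 FPKM, 16 with sample quality weights (whose estimation stopped before convergence, and with which 1863 of all 12607 genes were called against 181), and 5 with copies summed. Leaving out 1 library gave 0 to 4. Chosen after seeing the data, leaving out wild-type spleens 4 and 5 together gave 0 of 10 tested, and leaving out 1 wild-type spleen with the minimum asked in 2 spleens gave 0 to 2. By median-of-ratios scaling 2 were called and Trav7-6 was not (limma FDR 0.0659). Lymph nodes against plckGAPDH spleens gave 0 called Trav genes under every alternative except without lymph node 508, where 1 was called; the leave-one-out range was 0 to 1. None of the 9 family measures passed the test under any alternative run, but with 1 wild-type spleen or 1 plckGAPDH spleen left out the smallest exact p allowed is above 0.05, so those fits say nothing of stability. With every spleen kept, a single measure at the smallest exact p would not pass after adjustment over the 9. The other alternatives therefore say little as well. Left-out libraries moved the proximal share difference between -1.46 and 25.3 percentage points and the n copy difference between -8.36 and 7.12. Without spleen 508 the distal share difference was -0.51, the d copy difference -1.11 and the top gene's share difference 16.3. The n copy difference turned to 1.77 without wild-type spleen 5, 0.716 without spleen 343 and 7.12 without spleen 508. The cause of these changes was not tested. No paired analysis was possible because the genotypes share no animals or batch labels. Depth limits single genes: the family held 186 to 251 estimated fragments in both libraries of animal 508 and in spleen 547.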
